A study of Homo sapiens with 3 samples.

Results

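The 6 genes described here encode regulators of mitochondrial biogenesis, and the data are positions bound by the transcription factor TFE3 in and around them. They are PPARGC1A, PPARGC1B, PPRC1, ESRRA, TFAM and NRF1. They were picked by name, not by a filter on measured binding, though earlier results of these data were known. Each gene was taken with its hg19 span, known here to the whole kilobase, and 5 kb on either side, and these stretches are called gene windows below. Of the 62322 summits listed for replicate 1, 26 lay in the 6 windows, and of the 72692 listed for replicate 2, 33 did.

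The study used HK-2 cells, an established line from human kidney proximal tubule epithelium, that carry an inducible HA-TFE3 gene dependent on doxycycline. Chromatin was precipitated through the HA tag in 2 ChIP-seq libraries, replicates 1 and 2, and 1 library of input DNA was not used here. The protocol gives 24 h of culture with or without doxycycline at 0.2 µg/ml, but not which libraries were induced. TFE3 binding was thus read through a tagged protein made from a transgene, and no library without the tag or the antibody was analysed here. Nothing says that the replicates came from separate cultures, so differences between them may be technical.

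Mitochondrial biogenesis is driven by nuclear genes. Coactivators of the PGC-1 family, encoded by PPARGC1A, PPARGC1B and PPRC1, have no DNA-binding domain of their own and work through transcription factors such as ERRα, the product of ESRRA, and nuclear respiratory factor NRF1. These switch on respiratory chain genes and TFAM, whose product packages mitochondrial DNA and starts its transcription. TFE3 belongs to the MiT/TFE family of basic helix-loop-helix leucine zipper factors, which bind E-boxes. TFEB, a close relative, is known to induce Ppargc1a in mouse liver. Proximal tubule epithelium is known to be rich in mitochondria.

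A summit is a single base that the authors listed for a bound region, with a score of theirs on a scale that the sources used here do not give. Scores are therefore read as percentiles within the list that holds them, where 100 is the highest. Summits of the replicates that lay within 100 bp of each other and were mutually nearest are called a pair. Sequencing depth is unknown, since the lists give no read counts. With 1 condition and no control list, no test was made. Values of the genes are set beside those of all summits on chromosomes 1 to 22 and X.

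Promoter sequences are shown for the 3 genes with a pair at the start and a RefSeq promoter whose start fits the span used here, to show which letters lie just before these starts. They hold the 250 bases before the start, on the plus strand of GRCh38.p14, from RefSeq. TFAM is given at chr10:58385160-58385409, PPRC1 at chr10:102132790-102133039 and ESRRA at chr11:64305274-64305523. The capitals mark CATGTG, an E-box core that MiT/TFE factors also bind.
TFAM: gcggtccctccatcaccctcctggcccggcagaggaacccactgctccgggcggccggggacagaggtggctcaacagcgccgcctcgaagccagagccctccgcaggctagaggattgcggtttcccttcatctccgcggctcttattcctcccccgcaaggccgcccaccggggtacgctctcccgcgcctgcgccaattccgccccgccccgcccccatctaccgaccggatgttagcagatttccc
PPRC1: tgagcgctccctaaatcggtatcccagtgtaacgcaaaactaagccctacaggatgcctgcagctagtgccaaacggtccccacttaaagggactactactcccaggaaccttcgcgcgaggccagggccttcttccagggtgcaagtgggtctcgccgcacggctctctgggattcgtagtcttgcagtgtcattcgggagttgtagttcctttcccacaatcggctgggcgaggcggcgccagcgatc
ESRRA: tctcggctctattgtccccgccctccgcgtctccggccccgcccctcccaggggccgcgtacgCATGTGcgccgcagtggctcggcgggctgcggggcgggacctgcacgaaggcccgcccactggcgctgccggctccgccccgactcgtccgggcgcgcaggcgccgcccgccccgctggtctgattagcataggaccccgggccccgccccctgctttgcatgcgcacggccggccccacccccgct

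The summits are on hg19 and were not placed on these letters. CACGTG, the E-box that MiT/TFE factors prefer, was in none of the 3 sequences on either strand, and in 6.35% of all 35116 RefSeq promoter stretches of the same length. The longer forms TCACGTGA and TCATGTGA, which hold the E-box cores CACGTG and CATGTG, were not in them either, against 0.854% and 0.852% of all stretches. CATGTG occurred once, in ESRRA, from 187 to 182 bases before the start, and in 9.42% of all stretches. It was added to the search after the sequences had been seen. The core palindrome of the NRF1 motif, TCAAGGTCA for ERRα, TGACGTCA for CREB, CCGGAAG for GABP and TGANTCA for AP-1 were also absent from all 3, against 1.03%, 0.319%, 1.65%, 8.52% and 6.57% of all stretches. Absence of a match covers only these exact letters in these windows, so it does not show that a factor lacks a site there. G and C made up 69.2% of the letters in TFAM and 78.0% in ESRRA, above the median of 58.0% over all stretches, and 58.4% in PPRC1, close to it. TFAM held 24 CpG dinucleotides, ESRRA 35 and PPRC1 17, against a median of 11.

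All 6 genes had HA-TFE3 summits of both libraries at the start of the gene. In each, a pair lay within 2 kb of the start, a limit chosen after the positions were known. Of all consecutive 4 kb windows of the genome, 5.4% held a pair. This share covers the whole genome, unmapped stretches included, and the share among gene starts in general was not measured, so the 6 of 6 is not shown to be particular to these genes. Since the starts are known to the kilobase, so are the distances from them. Positions before or after a start are relative to the span used here. On which side of the true start a pair this close lies was not determined.

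The start of PPARGC1A, the gene of the coactivator PGC-1α, carried a pair 232 bp into the span in replicate 1 and 254 bp in replicate 2. It scored 6.71 in replicate 1 and 9.14 in replicate 2, at percentiles 36.0 and 51.7. For PPARGC1B, which encodes the related coactivator PGC-1β, the start pair lay at 848 and 814 bp. Its scores of 4.50 and 4.36 were at percentiles 12.9 and 13.2, the lowest start pair of the 6 genes. Both libraries thus placed these start pairs in the lower or middle part of their lists.

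PPRC1 encodes the PGC-1-related coactivator, which is known to respond to growth signals. Its start pair, 709 and 706 bp into the span, scored 21.1 in replicate 1 and 15.5 in replicate 2, at percentiles 85.8 and 74.5. ESRRA had its start pair outside the span, 213 bp before it in replicate 1 and 131 bp before it in replicate 2. That pair scored 20.8 and 15.6, at percentiles 85.4 and 75.2. TFAM had a pair 1083 and 1042 bp into the span, with scores of 14.8 and 19.2 at percentiles 74.1 and 81.7. NRF1, which encodes an activator of respiratory chain genes, had its start pair at 519 and 599 bp, with scores of 17.8 and 19.2 at percentiles 80.8 and 81.7.

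The start pairs of 4 genes stood higher in both lists than those of PPARGC1A and PPARGC1B. Those of PPRC1, ESRRA, TFAM and NRF1 lay at percentiles 74.1 to 85.8 in replicate 1 and 74.5 to 81.7 in replicate 2. Those of PPARGC1A and PPARGC1B lay at 12.9 to 36.0 and 13.2 to 51.7. This grouping was drawn from these same percentiles, so ranges that do not overlap follow from it. PPARGC1A and PPARGC1B themselves stood apart in replicate 2, at 51.7 and 13.2. With 6 genes and no control the grouping is a description. With a pairing limit of 50 bp the start pairs of ESRRA, 82 bp apart, and NRF1, 80 bp apart, were no longer pairs. ESRRA then kept another pair near its start and NRF1 did not, which left 5 of 6 genes. Among summits scoring above their list median, 4 of 6 genes had a pair within 2 kb of the start, without PPARGC1A and PPARGC1B, and among the 10000 highest-scoring summits 0 of 6 did.

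**Figure D1:**
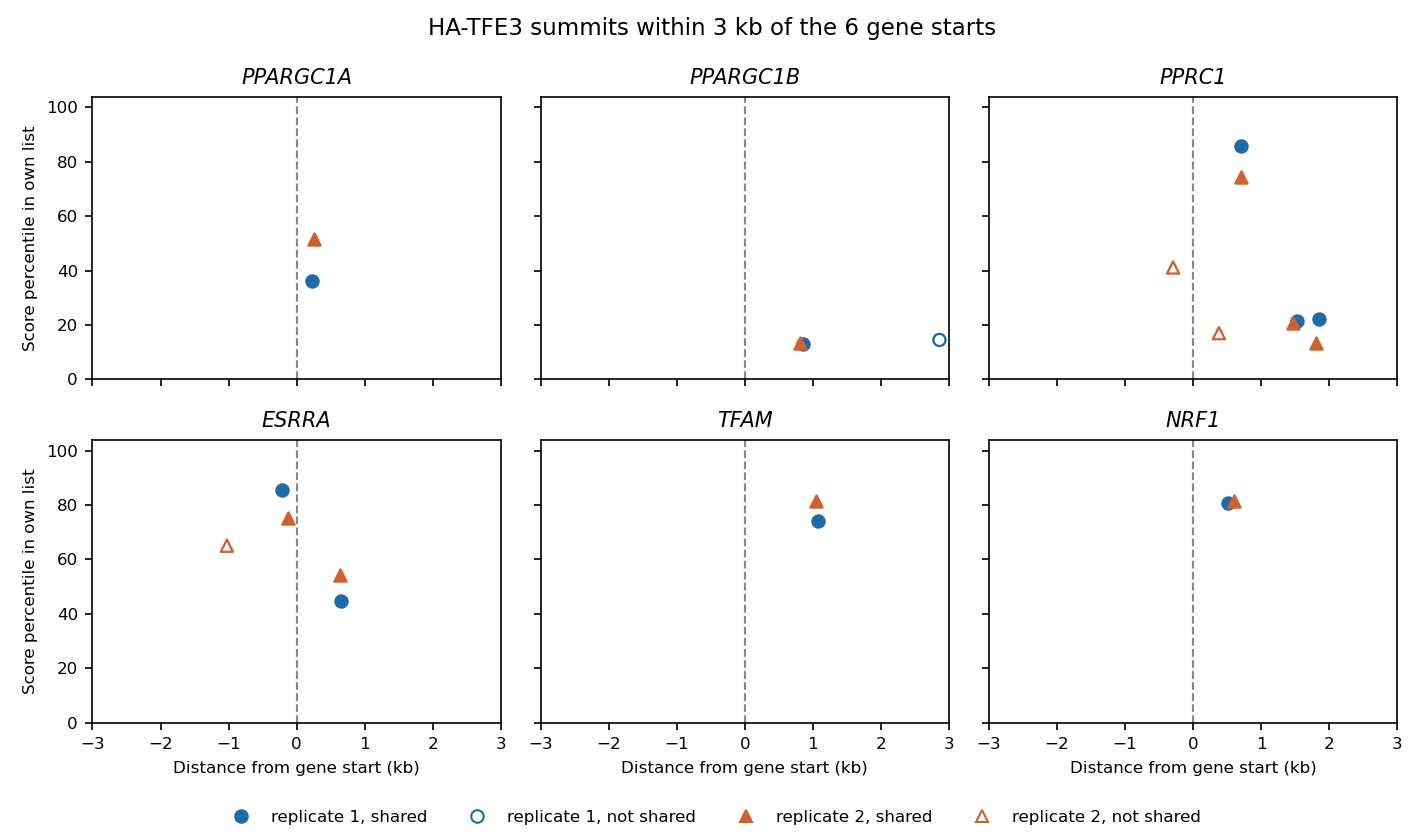
HA-TFE3 summits within 3 kb of each gene start, with the distance from the start in kb (known to the kilobase, positive into the span used here) on the horizontal axis and the score percentile in the summit's own list on the vertical axis. Circles are replicate 1 and triangles replicate 2, filled where the summit was shared; the start pairs of PPRC1, ESRRA, TFAM and NRF1 sit above 74, and those of PPARGC1A and PPARGC1B at 51.7 or below.

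Over the whole windows the replicates shared 20 pairs in 477 kb. That is 41.9 pairs per Mb (95% Poisson interval 25.6 to 64.8), against 15.6 per Mb over the chromosomes used, a ratio of 2.69. With the flanks left out there were 13 pairs, and the ratio was 1.997. The genome average covers unmapped stretches too, as do the shares of consecutive windows given below. Windows placed on other genes were not measured, so the ratio is not shown to be particular to these genes. The excess over the genome average was not even across the genes. PPRC1 held 5 pairs and ESRRA 4, where windows of their lengths held means of 0.453 and 0.343. For PPARGC1B it was 6 against 2.12, for TFAM 1 against 0.390 and for PPARGC1A 2 against 1.70. NRF1, with 2 against 2.435, lay below its mean. Of the summits in the windows, 76.9% of replicate 1 were shared (20 of 26, 95% exact binomial interval 56.4 to 91.0) and 60.6% of replicate 2 (20 of 33, 42.1 to 77.1). Over all summits these shares were 76.1% and 65.2%, within both intervals. Only counting error enters these intervals, and summits close to each other are not independent. The partners lay a median of 27.5 bp apart, against 26 bp over all 47396 pairs. In 2 of the 20 pairs both libraries named the same base, against 1.86% of all pairs.

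**Figure D2:**
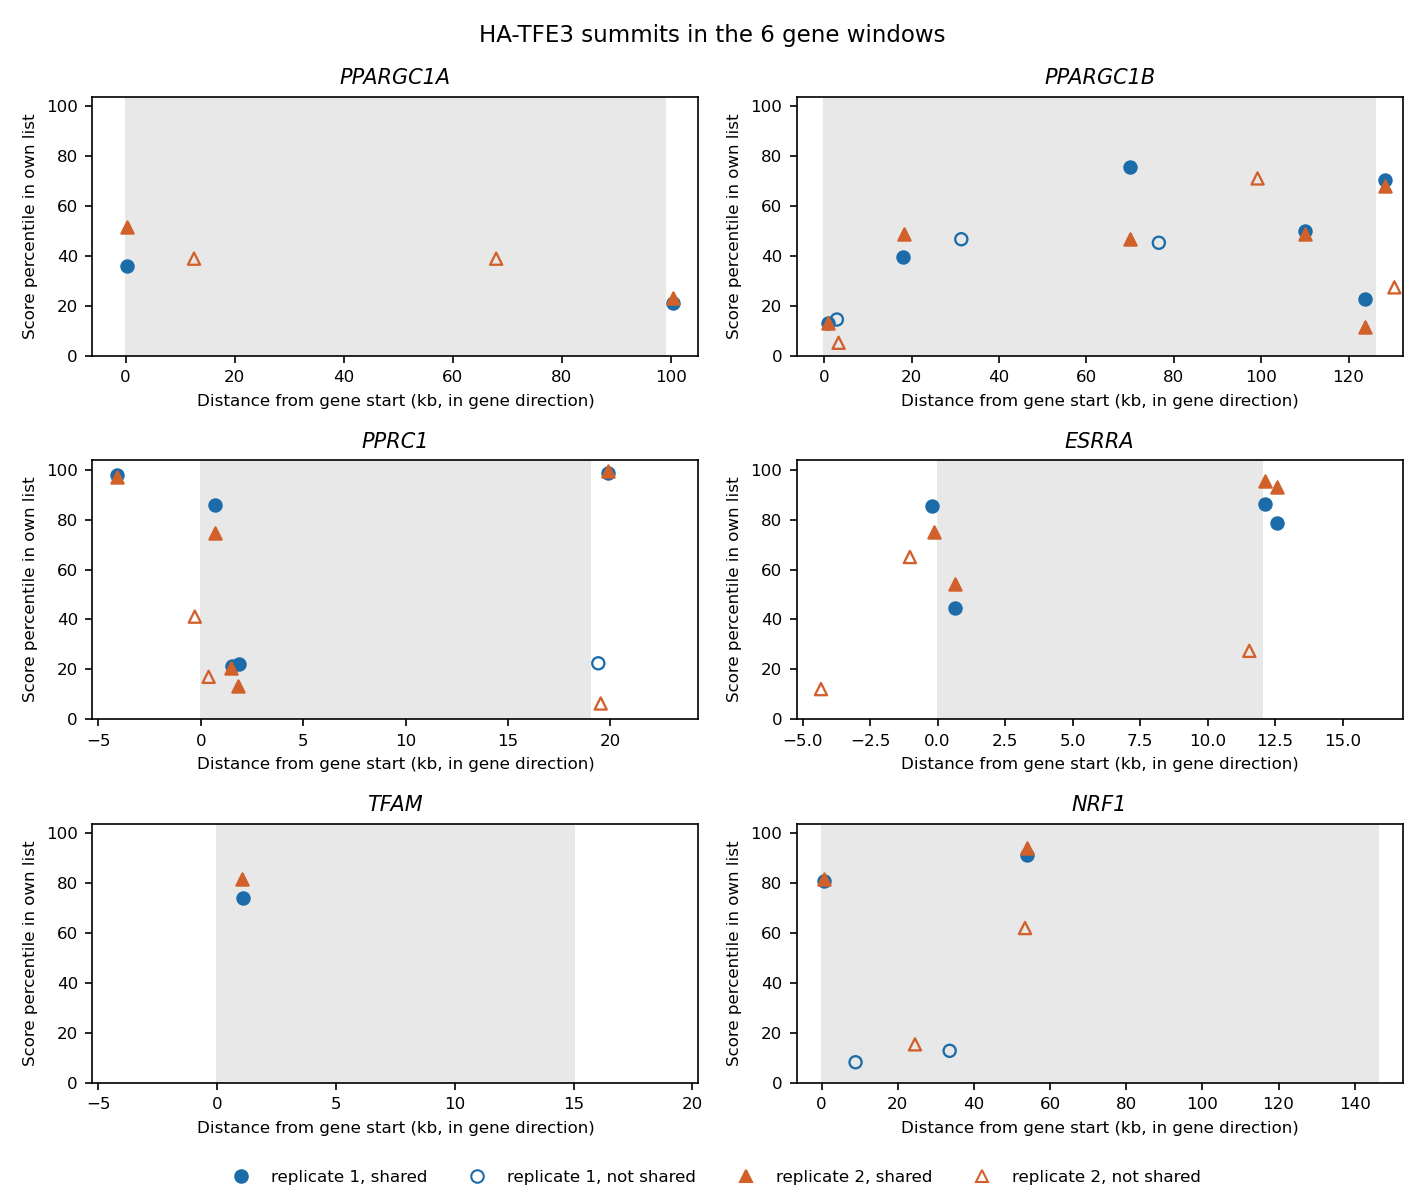
All HA-TFE3 summits in the 6 gene windows, by distance from the gene start in kb and score percentile in the own list. Grey marks the gene span and white its 5 kb flanks; circles are replicate 1 and triangles replicate 2, filled where shared. The highest pairs of PPRC1 and ESRRA lie in the flanks, and NRF1 has no summit after 54.1 kb.

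In number of pairs for the length of the window, flanks included, ESRRA and PPRC1 stood first. ESRRA had 1.82 pairs per 10 kb (95% Poisson interval 0.495 to 4.66) and PPRC1 1.72 (0.560 to 4.02). PPARGC1B followed with 0.441 (0.162 to 0.960), TFAM with 0.40 (0.0101 to 2.23) and PPARGC1A with 0.184 (0.0222 to 0.663). NRF1 had the lowest density, 0.128 (0.0155 to 0.463). Neighbours in this order had overlapping intervals. The intervals of ESRRA and PPRC1 lay above that of NRF1, and the differences between genes were not tested. The 5 kb flanks make up more of a short window, so this order depends on them. With no flank, ESRRA kept 1 pair, PPRC1 3, PPARGC1B 5, TFAM 1, PPARGC1A 1 and NRF1 2. Densities without flanks were not computed for single genes.

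PPARGC1A (chromosome 4, minus strand, bases 23793000 to 23892000, band 4p15.2) held 2 summits of replicate 1 and 4 of replicate 2 in its 109 kb window. The 2 of replicate 1 were both in pairs. Of consecutive windows of this length, 52.7% held a pair and 35.4% held 2 or more, so the gene stood among the common windows. Besides the start pair at bases 23891768 and 23891746, a pair lay at 23791604 and 23791569, about 100.4 kb from the start and just beyond the far end of the gene. It scored 4.86 and 5.31, at percentiles 21.1 and 22.9. Replicate 2 listed 2 more summits inside the gene, 12.5 and 68.0 kb from the start, both with a score of 6.95 at percentile 38.9, where replicate 1 had none within 12 kb. Between those 2 summits, 55.4 kb held no summit of either library.

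PPARGC1B (chromosome 5, plus strand, bases 149109000 to 149235000, band 5q32) had the most pairs, 6, with 9 summits in each library. Of consecutive 136 kb windows, 57.1% held a pair and 12.1% held 6 or more. The start pair lay at bases 149109848 and 149109814. The pair with the highest mean percentile, 69.2, lay past the end of the span at 149237324 and 149237312, with scores of 13.5 and 12.9. In RefSeq's gene order PDE6A, a subunit gene of the rod photoreceptor phosphodiesterase, comes next on this side. The second lay deep inside the gene, 69.9 kb from the start, at 149178902 and 149178881, with scores of 15.5 in replicate 1 and 8.21 in replicate 2. Its percentiles of 75.8 and 46.7 were the furthest apart among the 20 pairs. The third, at 149219002 and 149218929, about 110 kb into the gene, scored 8.55 and 8.30 at percentiles 50.1 and 48.7. The remaining 2 pairs, 18.1 and 123.8 kb from the start, had mean percentiles of 44.03 and 17.1.

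Each library also had 3 summits in PPARGC1B without a partner. The highest was in replicate 2, 99.2 kb from the start, with a score of 14.1 at percentile 71.1, and replicate 1 had no summit within 10.8 kb of it. Near the start, replicate 1 listed a summit at 2861 bp and replicate 2 at 3250 bp, with scores of 4.54 and 3.24, 389 bp apart. RefSeq places the microRNA gene MIR378A, known from mouse work as a regulator of energy metabolism, inside PPARGC1B. Whether these summits lie at MIR378A was not determined.

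PPRC1 (chromosome 10, plus strand, bases 103892000 to 103911000, band 10q24.32) held 5 pairs among 6 summits of replicate 1 and 8 of replicate 2. Of consecutive 29 kb windows, 26.3% held a pair and 0.851% held 5 or more. It had the highest pair of the 6 genes, at bases 103911875 and 103911857 just past the end of the span, with scores of 46.7 and 66.0 at percentiles 98.7 and 99.8. The second, 4073 bp before the start, fell on base 103887927 in both libraries, with scores of 41.6 and 40.5 at percentiles 97.9 and 97.1. These were the only 2 of the 20 pairs with a mean percentile above 95, against 5.66% of all pairs.

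Both of these pairs lie outside the span of PPRC1. In RefSeq's gene order NOLC1, which encodes a nucleolar phosphoprotein, follows PPRC1, and LDB1, which encodes a cofactor of LIM-domain proteins, precedes it. To which of these genes the pairs are closest was not determined, as no hg19 annotation was used. The start of PPRC1 itself held a cluster. The start pair at 103892709 and 103892706 was followed by pairs at 1531 and 1470 bp and at 1845 and 1812 bp, whose scores of 4.36 to 5.17 were at percentiles of 13.2 to 22.05. Replicate 2 added summits 294 bp before the start, with a score of 7.03, and 380 bp after it, with a score of 4.52. No summit of either library lay in the next 17.6 kb, most of the gene body. At the far end, summits of replicates 1 and 2 with scores of 5.23 and 3.37 lay 116 bp apart, just beyond the pairing limit. The widest pairs within the limit were those of ESRRA, PPARGC1B and NRF1, 82, 81 and 80 bp apart.

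ESRRA (chromosome 11, plus strand, bases 64073000 to 64085000, band 11q13.1) had 4 pairs, which took up all 4 summits of replicate 1 and 4 of the 7 of replicate 2. Of consecutive 22 kb windows, 21.8% held a pair and 1.11% held 4 or more. The pair with the highest mean percentile, 91.0, lay just past the end of the span at bases 64085123 and 64085116, with scores of 21.6 in replicate 1 and 35.4 in replicate 2. A second followed at 64085570 and 64085584, with scores of 17.01 and 30.4. Both stood higher in replicate 2, at percentiles 95.5 and 93.0, than in replicate 1, at 86.5 and 78.9. The start pair, at 64072787 and 64072869, was the reverse. The other pair, at 64073654 and 64073641, scored 7.73 and 9.495 at percentiles 44.7 and 54.1.

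Downstream of ESRRA, RefSeq lists TRMT112, which encodes a partner of several methyltransferases, and PRDX5, which encodes a peroxiredoxin found in mitochondria and peroxisomes. Upstream it lists CATSPERZ, which encodes a sperm calcium channel subunit. The 2 downstream pairs were not assigned to any of these genes. With the flanks left out, ESRRA kept 1 pair of 4. Replicate 2 alone listed summits at -4317 and -1024 bp, upstream of the start, and 11.5 kb after it, with scores of 4.23, 12.2 and 5.66. Between the pair at 64073654 and the last of these, 10.9 kb of the gene held no summit.

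TFAM (chromosome 10, plus strand, bases 60144000 to 60159000, band 10q21.1) had the simplest pattern. A single summit of each library lay in its 25 kb window, at bases 60145083 and 60145042, and they formed a pair 41 bp apart. Of consecutive windows of this length, 23.8% held a pair. The 18.9 kb from this pair to the end of the window held no summit. Its band is of the darkest staining class.

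NRF1 (chromosome 7, plus strand, bases 129251000 to 129397000, band 7q32.2) had 2 pairs among 4 summits of each library in the longest window, 156 kb. Of consecutive windows of this length, 59.9% held a pair and 43.9% held 2 or more, so its count was a common one. The start pair lay at bases 129251519 and 129251599. The other pair fell on base 129305071 in both libraries, 54.1 kb into the gene, with scores of 26.4 and 32.1 at percentiles 91.4 and 94.0. By mean percentile, 92.7, it stood below the 2 flanking pairs of PPRC1 and was the highest of the 13 within a gene span. Replicate 2 listed a further summit 641 bp before it, with a score of 11.1 at percentile 62.0. The unshared summits of replicate 1, 8.92 and 33.6 kb from the start, and of replicate 2, at 24.5 kb, scored 3.70, 4.46 and 4.41, at percentiles of 15.35 or less. From base 129305071 to the end of the window, 96.9 kb or 62.1% of it, neither library listed a summit. How well reads map there was not measured, so this stretch is not shown to lack binding.

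**Figure D3:**
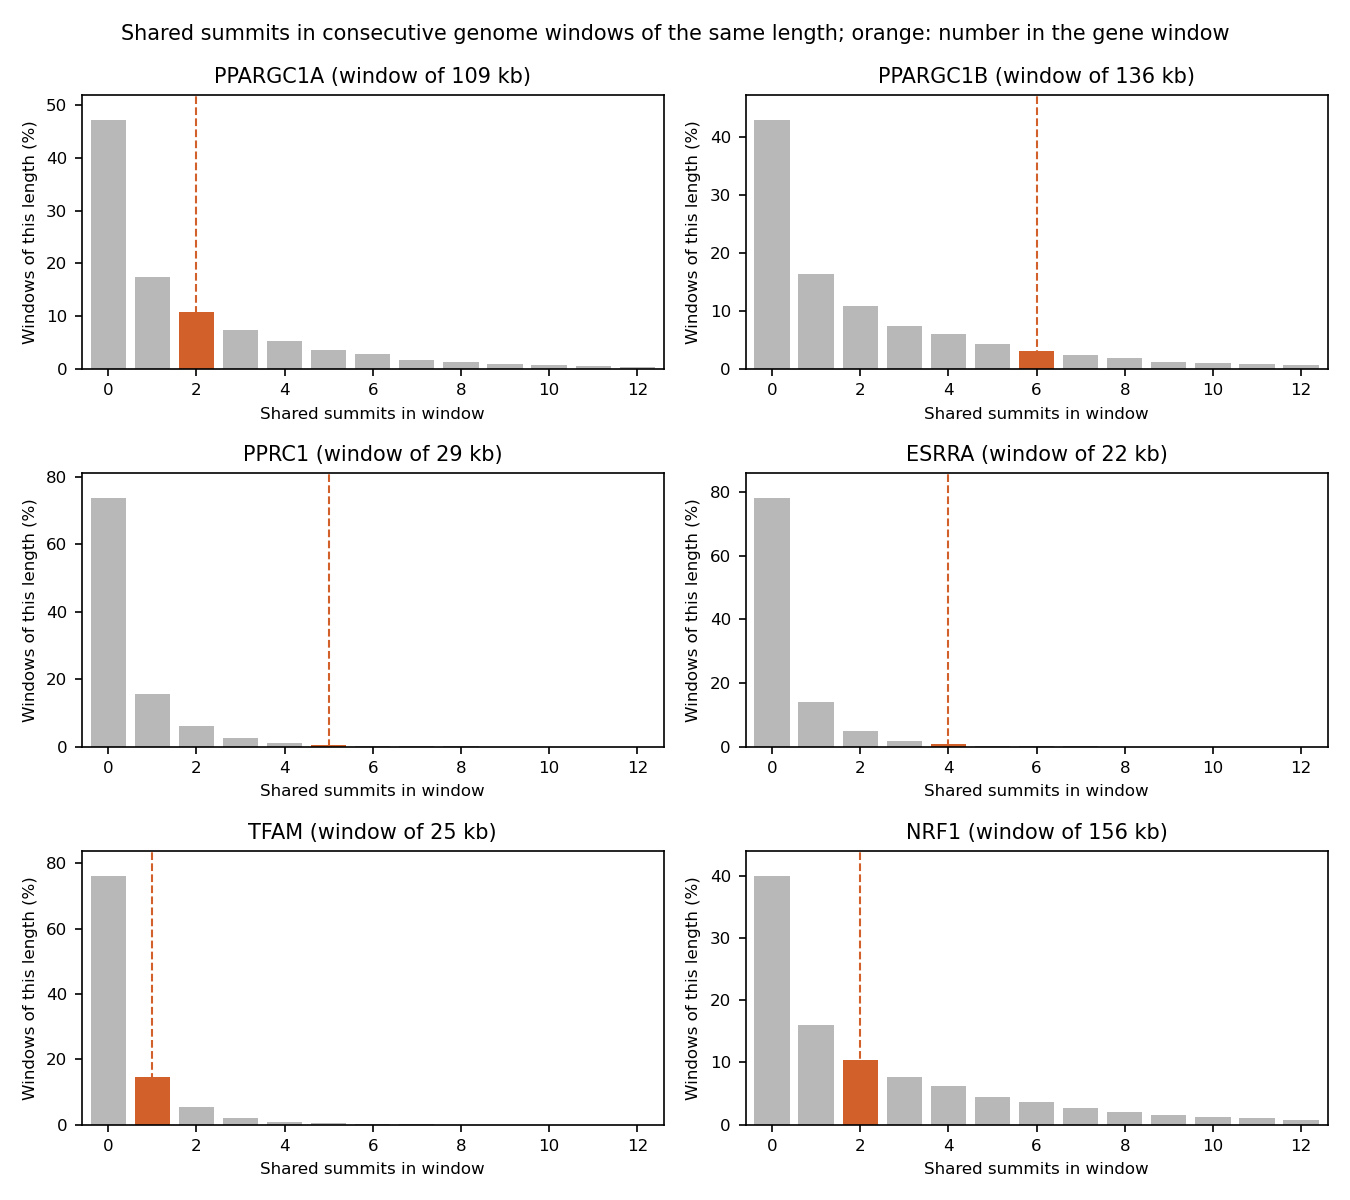
Share of consecutive genome windows (%, vertical axis) by the number of shared summits they hold (horizontal axis, drawn to 12), for windows as long as each gene window. Orange marks the number in the gene window: 5 for PPRC1 and 4 for ESRRA lie far out, 6 for PPARGC1B in the tail, and 2 for PPARGC1A, 2 for NRF1 and 1 for TFAM among common values. The windows cover the whole genome, unmapped stretches included, and windows placed on other genes were not measured.

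By place, 13 of the 20 pairs lay in the gene spans, 2 upstream and 5 downstream. The median of the mean percentile was 49.4 in the spans and 86.0 in the flanks. Over all 20 pairs it was 65.2, against 59.5 over all pairs, and 11 of the 20 lay above 59.5. In the libraries, the median of these pairs was 72.3 in replicate 1 and 61.02 in replicate 2, against 59.1 and 64.3 over all pairs. The direction of this difference thus was not the same in both libraries. Within the spans alone, and with flanks of 2 kb (55.3), the median was below that of all pairs. It was also below at a pairing limit of 500 bp, at 55.3 against 58.5.

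**Figure D4:**
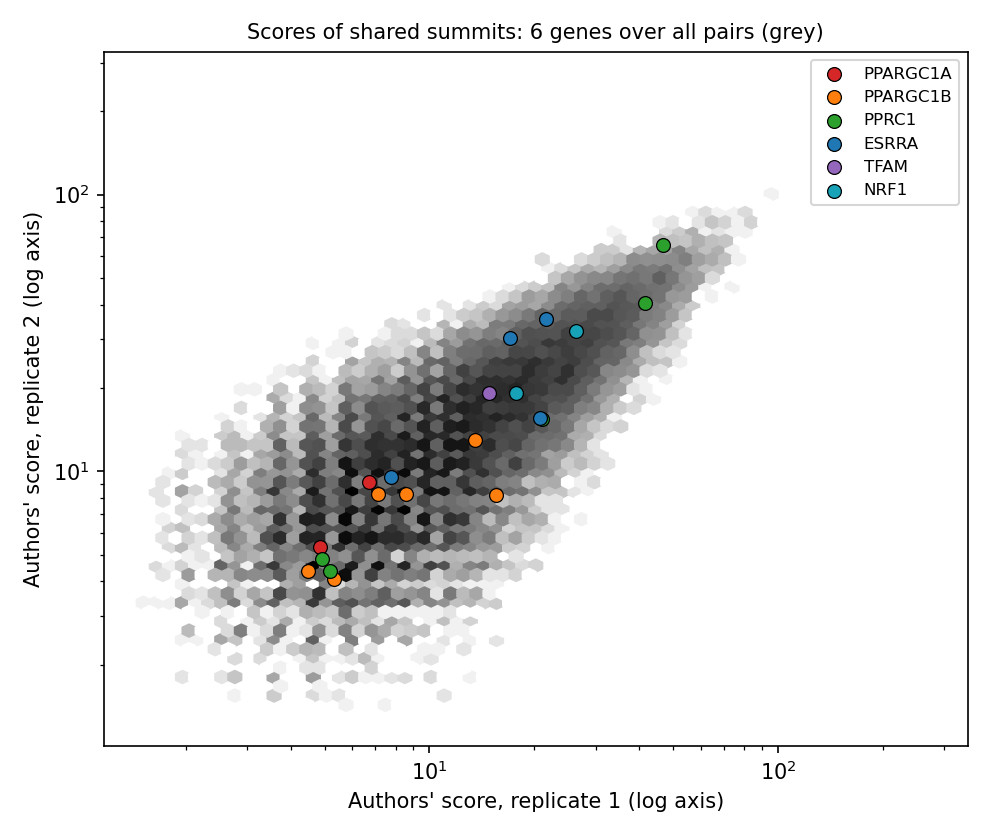
Authors' scores of shared summits in replicate 1 (horizontal, log axis) and replicate 2 (vertical, log axis). Grey hexagons are all 47396 pairs, darker where there are more, and coloured points are the 20 pairs of the 6 genes, the highest of which are those of PPRC1 with 46.7 and 66.0 and with 41.6 and 40.5.

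Summits listed in 1 library were mostly weak. In replicate 1 the 6 unshared summits of the windows had a median percentile of 18.4, against 24.8 over all its unshared summits, and all 6 lay below 50. In replicate 2 the 13 unshared ones had a median of 27.4, equal to that of all its unshared summits, and 10 lay below 50. The other 3 were those of PPARGC1B, ESRRA and NRF1 named above, at percentiles 71.1, 65.1 and 62.0.

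The edges of the windows left out little. In PPARGC1B the last summit inside, of replicate 2, lay 130.5 kb from the start with a score of 5.66 at percentile 27.4. A pair followed 478 and 509 bp outside, with scores of 8.50 and 6.95 at percentiles 48.3 and 38.9. Upstream of ESRRA, replicate 2 had a summit 1145 bp outside and replicate 1 another 2302 bp outside, with scores of 6.95 and 4.02. Around the other genes the nearest summit outside lay at least 5.05 kb from the window.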

How the data were processed

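The 2 lists of TFE3 summits were analysed, 1 for each HA-TFE3 ChIP library, grouped by their titles. The authors deposited each as 1 bp positions with a name and a score, with hg19 coordinates, as the submitters' processing notes name that build. How reads were aligned, how and at what threshold peaks were called, and whether the input library served as background are details not given in the sources used here. Each of these can change how many summits are listed and where. Positions were made 1-based, and 35 and 45 summits outside chromosomes 1 to 22 and X were left out. Window counts used consecutive windows, with chromosome lengths and bands from circlize 0.4.16. Intervals are exact at 95%. All 6 genes were found in RefSeq's GRCh38.p14 gene table, used for names and gene order, and 5 in its promoter table. The promoter starts of PPARGC1A and PPARGC1B differed from the gene starts used here, so neither is shown.

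The genes, windows and motifs were chosen with earlier results of these data known. All 6 genes are named, each with its start pair and up to 3 pairs of the highest mean percentile, the remaining pairs being given by position. The pairing step was tested on simulated lists with randomly scattered positions and partners well within the pairing limit. Clustered summits and partners near the limit were not covered by that test. Tools were Python 3.11.15, NumPy 2.4.6, pandas 2.3.3, SciPy 1.17.1 and matplotlib 3.10.9. No hg19 genome or annotation was used, so the planned motif search at summits, the list of other biogenesis genes and spans from an annotation were not run. Alternatives were other pairing limits, other flanks, high-scoring summits and each library alone.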

Additional observations from a re-analysis of the deposited data

How the results depend on the processing

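The pooled pair density of the 6 windows stayed above the genome average under each alternative run. A library alone has no pairs, so all its summits were counted in their place. The median percentile turned below that of all pairs, 59.5, with flanks of 0 and 2 kb. It was also below the 58.5 of all pairs at a 500 bp limit. The 20 pairs became 13 with no flank, 10 among summits above the median score and 4 in the top 10000 summits of each list, while each library alone listed 26 to 33 summits. All 59 summits of both libraries became 39, 26 and 11 under the same 3 settings. The ratio to the genome average, 2.69, was 1.997 with no flank, 2.51 with 10 kb, 2.37 at a 50 bp limit and 3.79 among the 10000 highest, and 2.66 to 2.89 in each library alone. The pooled share of paired summits, 67.8%, was 47.5% at 50 bp. The median percentile, 65.2, was 49.4, 55.3 and 61.2 with flanks of 0, 2 and 10 kb, and 73.5, 61.2 and 55.3 at limits of 50, 200 and 500 bp. Over all pairs it was 61.1, 58.8 and 58.5 at those limits. The median of the member pairs was 83.6 above the median score and 95.1 among the 10000 highest. Keeping high-scoring summits raises it by construction, and over all pairs it was 79.4 and 93.9 under these settings. For each library alone, the median over its summits in the 6 windows was 46.0 to 48.7, below the middle of a list at 50. These sets hold unshared summits too, so they are unlike the pairs. The median distance from a start to its nearest pair, 612.5 bp, was 760 bp at 50 bp, 874 bp above the median score, 35820 bp among the 10000 highest and 446.5 to 614 bp in each library alone. Genes with a pair within 2 kb of the start were 6 under limits of 200 and 500 bp, and 5 at 50 bp. They were 4 above the median score (without PPARGC1A and PPARGC1B) and 0 among the 10000 highest. Each library alone had a summit there in all 6. Wider limits keep these pairs and each pair holds a summit of both libraries, so these counts of 6 follow from the main result. For single genes, 41 counts stayed within 1.5 times the main pair count and 19 did not. For each library alone these are counts of all its summits, not of pairs. Of the start distances, 26 stayed within the spread between replicates and 16 did not. That spread came from the distances in each library alone. For each gene 1 of those distances stayed and the other did not, which therefore says nothing on stability. The cause of these changes was not tested; the score settings leave fewer summits to pair by construction. The count of genes near a start, and the alternatives for the start distance other than each library alone, were chosen after seeing the data. The alternatives that need an hg19 annotation or genome were not run. No paired analysis was possible because the result comes from no test and only 1 group of libraries was compared. Depth is unknown, so no value could be weighted by it.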

Other observations

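The 6 windows differ in how far their surroundings are marked. Upstream of PPARGC1B the nearest summits outside the window lay 105.5 kb away in replicate 1 and 91.7 kb away in replicate 2, the longest such distances of the 6 genes. Upstream of PPARGC1A they lay 27.95 and 39.7 kb outside, and that of replicate 2 had a score of 31.3 at percentile 93.4. Past the end of TFAM, summits lay 8.56 and 8.39 kb outside in replicates 1 and 2, with scores of 12.9 and 27.0 at percentiles 69.4 and 90.5. Past the end of ESRRA they lay 9.62 and 9.68 kb outside, with scores of 17.01 and 20.4, and past the end of PPRC1 13.3 kb outside in both, with scores of 16.7 and 16.4.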
